A study of Mus musculus with 10 samples.

Results

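Genes of rRNA processing and ribosome assembly were followed across mouse livers with and without nucleomethylin. The 44 genes were listed by their known role. Each was measured by the probe set that carries its symbol, or by the one with the highest mean where there were several. All 44 were among the 19935 genes measured, and none was removed for a low signal. They comprised 19 factors of the small subunit, 15 of the large subunit, 7 proteins of small nucleolar ribonucleoproteins (snoRNPs) and 3 proteins that act for both subunits.

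Livers of 5 wild-type (WT) and 5 nucleomethylin knockout (NML-KO) mice were taken at 12 weeks of age, and total RNA of each was hybridised to 1 whole-transcript array. Rrp8 encodes nucleomethylin, which belongs to the methyltransferase family, sits in the nucleolus and is known for silencing rRNA genes. The sources used here do not state the nature of the deletion, the strain or the time of dissection, and the labels name no treatment. Replicates are separate livers, so p-values set a difference against the spread between these animals.

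Ribosomes are built in the nucleolus, where one long precursor RNA is transcribed, folded, chemically modified and cut into the rRNAs of both subunits. The small-subunit processome binds the precursor as it is made, together with the U3 snoRNP, and carries the cuts that free the small subunit. Large-subunit particles mature through another set of helicases, GTPases and scaffold complexes, while box C/D and box H/ACA snoRNPs guide methylation and pseudouridylation. In hepatocytes, genes of this kind are known targets of the transcription factor MYC during growth, and their transcription is also known to follow the daily feeding and clock cycle.

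The livers differed in a second way that was not a label of the study. Dbp, a transcription factor gene driven by the circadian clock, had log2 intensities of 9.68 to 10.2 in WT 1, WT 2 and NML-KO 1 to 3, and of 6.20 to 6.60 in WT 3 to 5, NML-KO 4 and NML-KO 5. The livers were therefore also compared as Dbp-high and Dbp-low, at a log2 Dbp intensity of 8, with genotype in the model. Because these sets came from measured values of the same arrays, the comparison describes these livers and no assigned condition. The sets are also the opposite sides of the first principal component of variation within genotypes, which holds 47.4% of it. P-values between the sets therefore belong to a division made from the data. Rrp8 itself was 7.75 ± 0.11 (SD, n = 5) in WT and 6.87 ± 0.22 (SD, n = 5) in NML-KO livers, with no overlap. Hepatocyte markers had a mean log2 intensity between 13.9 and 14.2 in every liver. Median intensities of the arrays lay between 62.5 and 66.7, and precision is limited by how many arrays there were. In whole tissue, fewer cells of a type and less RNA per cell cannot be told apart.

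**Figure D1:**
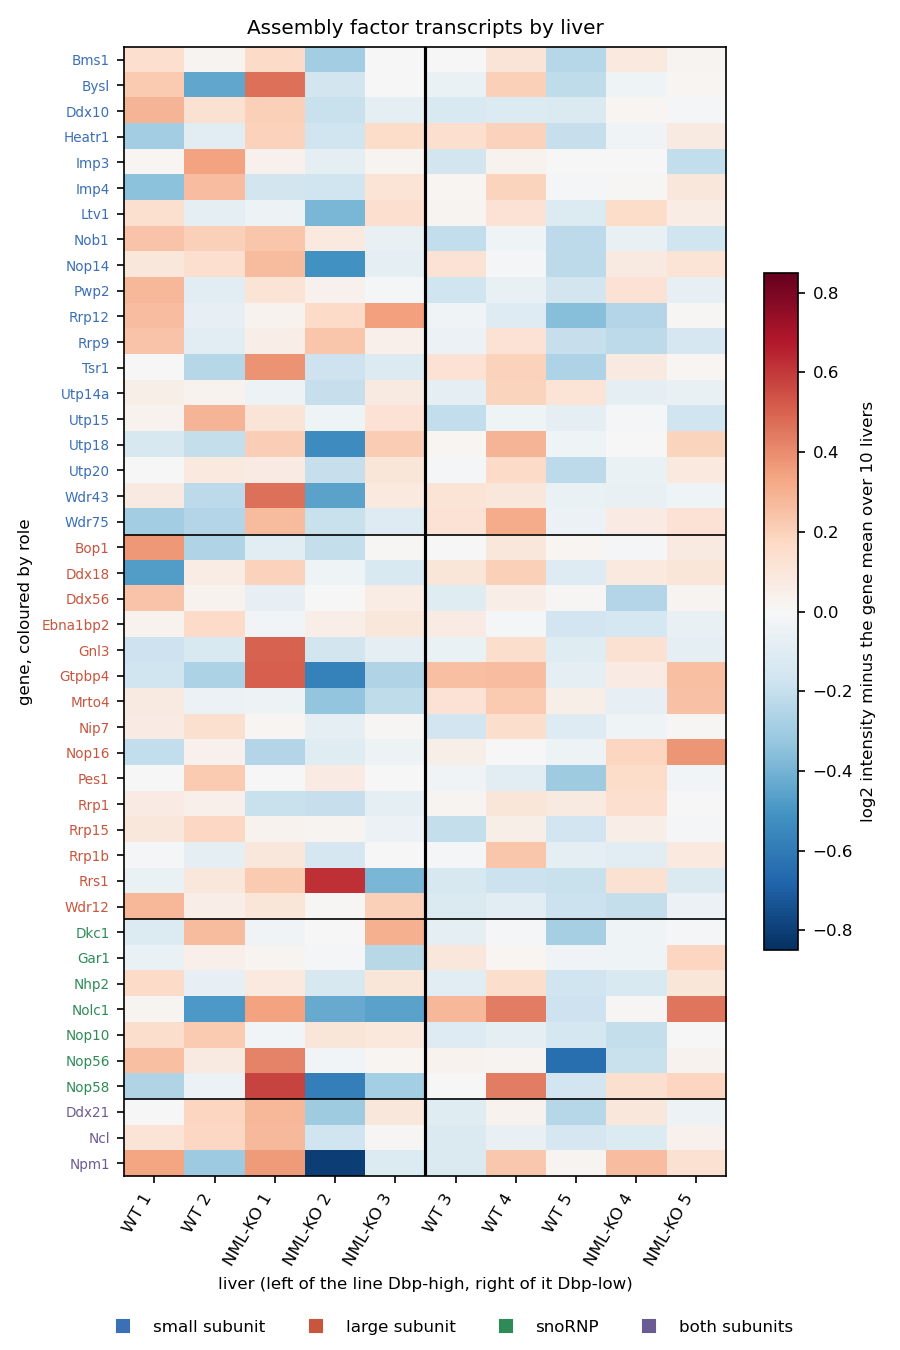
Log2 intensity of each of the 44 genes in each liver, as the deviation from that gene's mean over the 10 livers, with genes grouped by role and livers ordered by Dbp set. The columns of NML-KO 1 and WT 4 are mostly above the gene means and those of NML-KO 2 and WT 5 mostly below, without a shared block by genotype.

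No assembly factor was called between genotypes. With limma and Benjamini-Hochberg adjustment over all genes, 0 of the 44 passed an adjusted p of 0.05, where 0% of all genes did, and 0 of the 44 had an unadjusted p below 0.05, where 2.70% of all genes did, 1.05% higher and 1.66% lower. No member separated the genotypes without overlap, as 0.406% of all genes did. Rrp8 itself was not called either, at an adjusted p of 0.109 by limma with Benjamini-Hochberg adjustment, although its unadjusted p of 5.5e-06 was the smallest of all genes. It passed in 1 of 10 fits with 1 liver left out. Of the 44, 24 had a higher and 20 a lower mean in NML-KO livers, with differences from -0.17 to 0.19 on the log2 scale and a median of 0.0019. The median over all genes was -0.0065. The smallest unadjusted p among the members was 0.0846, with an adjusted p of 0.999 by limma with Benjamini-Hochberg adjustment. Comparing small- and large-subunit factors, the median log2 difference was 0.00076 for the 19 of the small subunit and 0.00016 for the 15 of the large subunit. The 7 snoRNP proteins had a median difference of 0.0073 and the 3 proteins of both subunits 0.016.

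The precision was enough to bound these differences in array intensity, for each gene taken alone. On the same arrays Rrp8 itself was 1.84-fold lower in NML-KO livers. How intensity ratios follow transcript ratios was not tested. For 44 of the 44 genes, limma's 95% confidence interval of the NML-KO to WT ratio lay within 1.5-fold in either direction, as it did for 91.7% of all genes. The highest upper bound was that of Rrs1, a gene of low signal, at 1.46 times WT. The lowest lower bound was that of Npm1, at 0.690 times WT. The median half-width of the interval was 0.23 on the log2 scale, against 0.20 over all genes. When any 1 liver was left out, the number of members with an interval within 1.5-fold was between 41 and 43.

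**Figure D2:**
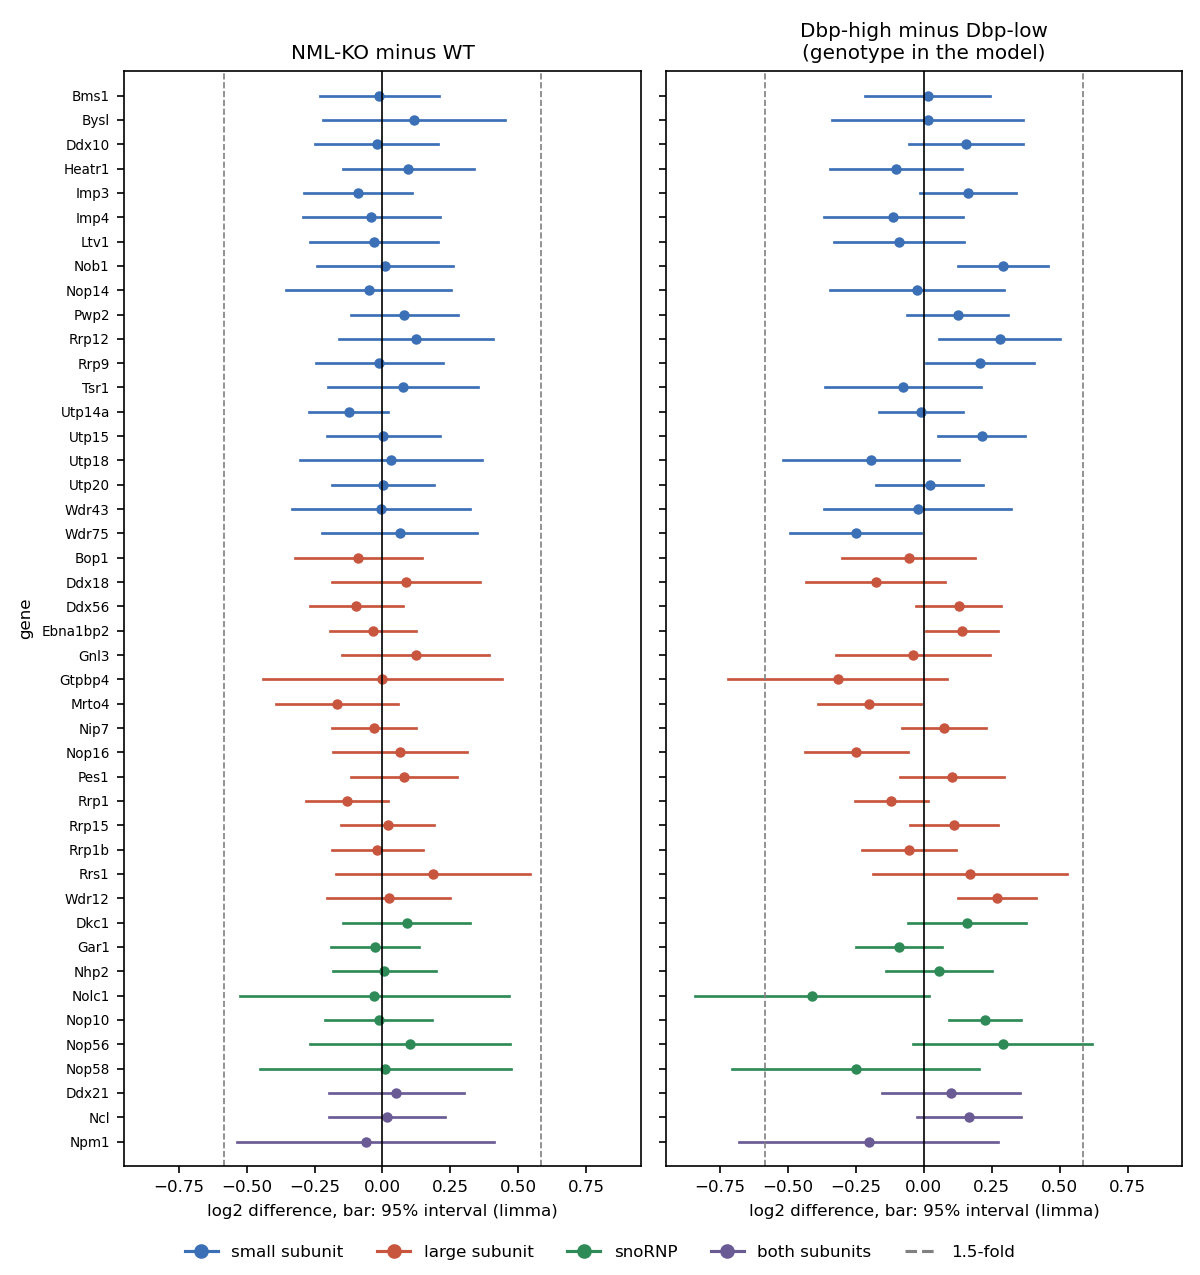
Difference in log2 intensity of each of the 44 genes, NML-KO minus WT and Dbp-high minus Dbp-low, with 95% confidence intervals from limma and genes coloured by role. Intervals of the genotype difference all stay within 1.5-fold, and the Dbp differences run from -0.41 to 0.29 with Nob1, Wdr12 and Nop10 past an adjusted p of 0.05.

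Among small-subunit factors, Utp14a and Imp3, both components of the processome, and Rrp12, a transport and maturation factor of pre-ribosomes, came nearest to a genotype difference. The log2 intensity of Utp14a was 6.46, 6.44, 6.34, 6.60 and 6.53 in WT 1 to 5 and 6.37, 6.21, 6.49, 6.33 and 6.35 in NML-KO 1 to 5. WT 3 lay among the NML-KO livers and NML-KO 3 among the WT livers, and the difference was -0.12 (SE 0.066, unadjusted p = 0.0871 by limma). Without NML-KO 3 or without WT 3 the unadjusted p of Utp14a was below 0.05. Imp3 was 9.27, 9.60, 9.10, 9.28 and 9.25 in WT 1 to 5 against 9.29, 9.18, 9.27, 9.26 and 9.04 in NML-KO 1 to 5. WT 2 was the highest liver and NML-KO 5 the lowest, with the other livers interleaved and a difference of -0.090 (SE 0.090, unadjusted p = 0.34 by limma). For Rrp12 the difference was 0.12 (SE 0.13, unadjusted p = 0.36 by limma). The processome proteins Utp15, Utp18, Utp20, Wdr43, Wdr75, Heatr1 and Pwp2, gave differences of 0.0030, 0.031, 0.00076, -0.0041, 0.063, 0.095 and 0.081, and without WT 1 Pwp2 had an unadjusted p below 0.05. Late factors of the small subunit differed by 0.0092 for Nob1, the endonuclease that makes the last cut of the small-subunit rRNA, by -0.031 for Ltv1, and by 0.12 for Bysl.

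Of the large-subunit factors, Rrp1, a nucleolar factor of the pre-large particle, had the smallest unadjusted p. Its log2 intensity was 8.86, 8.83, 8.82, 8.90 and 8.87 in WT 1 to 5 and 8.60, 8.59, 8.71, 8.93 and 8.79 in NML-KO 1 to 5. NML-KO 1, 2, 3 and 5 were below every WT liver, while NML-KO 4 was above them all. The difference of -0.13 (SE 0.068, unadjusted p = 0.0846 by limma) was -0.21 within the Dbp-high livers and -5.0e-05 within the Dbp-low livers, and without NML-KO 4 the unadjusted p was below 0.05. Mrto4, a homologue of the stalk protein P0 that acts in pre-large particles, was 6.78, 6.65, 6.82, 6.92 and 6.75 in WT 1 to 5 and 6.66, 6.36, 6.48, 6.63 and 6.95 in NML-KO 1 to 5. NML-KO 2, 3 and 4 lay below all WT livers and NML-KO 5 above them, a difference of -0.17 (SE 0.10, unadjusted p = 0.131 by limma). A second probe set of Mrto4, of lower mean signal, gave -0.21 (SE 0.091, unadjusted p = 0.0449 by limma). Its platform number lies apart from those of the chromosome 4 members, of which Mrto4 is 1, and whether it reads another locus was not tested. Without NML-KO 5 the probe set used also had an unadjusted p below 0.05.

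Ddx56, a DEAD-box helicase of the large subunit, differed by -0.096 (SE 0.078, unadjusted p = 0.246 by limma). Rrs1, which brings the 5S ribonucleoprotein into the particle, was 5.66, 5.81, 5.58, 5.54 and 5.53 in WT 1 to 5 and 5.94, 6.34, 5.33, 5.85 and 5.60 in NML-KO 1 to 5. NML-KO 2 was the highest liver and NML-KO 3 the lowest, so that the WT range fell inside that of NML-KO livers and the difference was 0.19 (SE 0.16, unadjusted p = 0.27 by limma). Without NML-KO 3 its unadjusted p was below 0.05. The signal of Rrs1 was low, with means of 5.62 in WT and 5.81 in NML-KO livers. Both lie below 6, the log2 limit used for dim genes in an alternative fit. Gnl3, the nucleolar GTPase nucleostemin, differed by 0.12 (SE 0.12, unadjusted p = 0.336 by limma), with NML-KO 1 the highest liver at 7.90. The scaffold of Pes1, Bop1 and Wdr12, which acts as one complex, differed by 0.081, -0.089 and 0.023 respectively.

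The snoRNP proteins and the abundant nucleolar proteins had genotype differences of -0.062 to 0.10. In the box C/D particle, Nop56 differed by 0.10 and Nop58 by 0.011. In the box H/ACA particle, the pseudouridine synthase Dkc1 differed by 0.089, Gar1 by -0.028, Nhp2 by 0.0073 and Nop10 by -0.014. Nolc1, a chaperone of snoRNPs, differed by -0.029. Nucleolin (Ncl) differed by 0.016, nucleophosmin (Npm1) by -0.062 and the helicase Ddx21 by 0.051.

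With the Dbp set in the genotype model, the members had a median log2 difference of -0.0064, and 0 of 44 had an unadjusted p below 0.05 by limma, against 4.36% of all genes. Within the Dbp-high livers, 28 of 44 were lower in NML-KO livers, with a median of -0.053, and within the Dbp-low livers 31 of 44 were higher, with a median of 0.027. Over all genes the same medians were -0.013 and -0.0060. Large-subunit factors had a median of -0.066 in Dbp-high and 0.020 in Dbp-low livers, and small-subunit factors -0.045 and 0.015. The test of whether the genotype difference depended on the Dbp set called 0 of 44 members after Benjamini-Hochberg adjustment in limma, and 0 of all genes. Of the members, 1, Ddx10, a helicase of the small subunit, was past an unadjusted p of 0.05 in that test, where 6.49% of all genes were.

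Between the Dbp sets, 3 of the 44 factors were higher in Dbp-high livers and 0 were lower. They were Nob1, Wdr12 and Nop10, one each of the small subunit, the large subunit and the snoRNPs. Among all genes, 4.92% were called higher, 7.99% lower and 12.9% in either direction by limma with Benjamini-Hochberg adjustment, so the members' 6.82% was above the share called higher and below the share called in either direction. With a trended and robust prior in limma 0 of the 44 were called, and after quantile normalization 5 were called higher, Utp15 and Imp3 besides these 3. At an unadjusted p below 0.05, 7 members were higher and 3 lower, 22.7% in all, where 12.5% of all genes were higher, 14.4% lower and 26.9% either. Of the 44, 23 were above and 21 below 0, with a range of -0.41 to 0.29 and a median of 0.014, against 0.024 over all genes. The median was 0.013 for small-subunit factors, -0.041 for large-subunit factors, 0.055 for snoRNP proteins and 0.099 for the 3 proteins of both subunits.

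**Figure D3:**
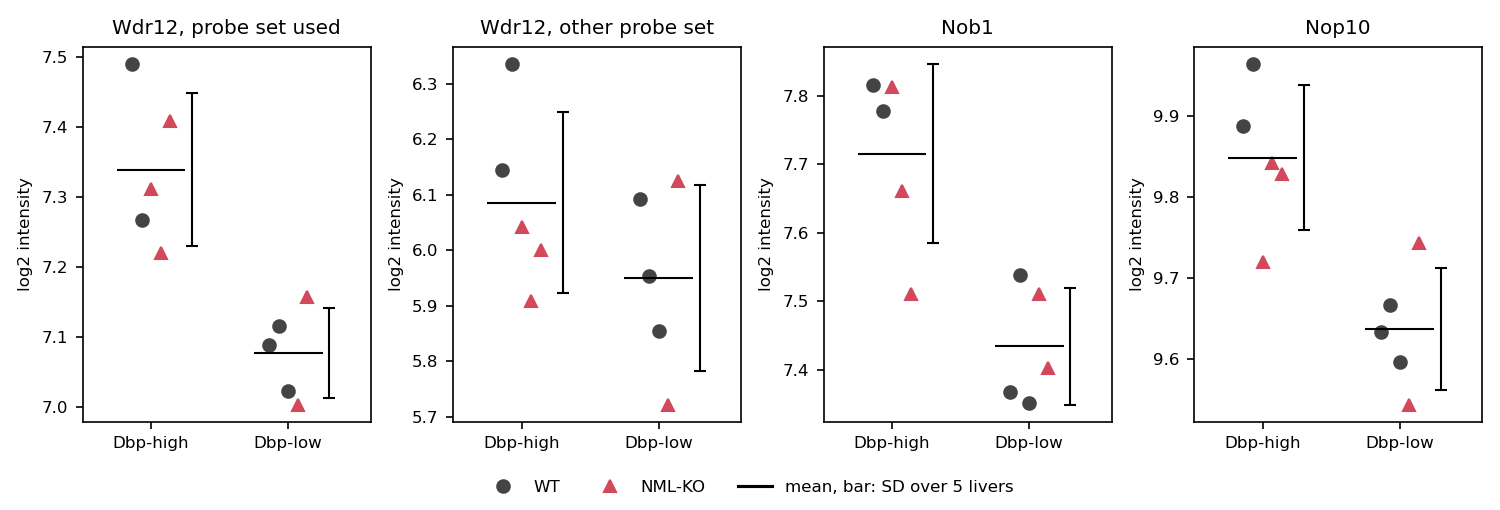
Log2 intensity of both Wdr12 probe sets, Nob1 and Nop10 in each of the 10 livers, by Dbp set, with symbols for genotype and lines for the mean and SD of each set. The Wdr12 probe set used separates the sets, at 7.22 to 7.49 against 7.00 to 7.16, whereas its other probe set, Nob1 and Nop10 overlap.

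Nob1 was 7.82, 7.78, 7.81, 7.66 and 7.51 in the Dbp-high livers WT 1, WT 2 and NML-KO 1 to 3. In the Dbp-low livers WT 3 to 5, NML-KO 4 and NML-KO 5 it was 7.37, 7.54, 7.35, 7.51 and 7.40. Only NML-KO 3 among the high livers came within the range of the low ones. The mean was 7.72 ± 0.13 (SD, n = 5) against 7.43 ± 0.09 (SD, n = 5), a 1.22-fold rise with a log2 difference of 0.29 (SE 0.073) and an adjusted p of 0.0287 by limma with Benjamini-Hochberg adjustment. It was 0.38 within WT and 0.20 within NML-KO livers. Leaving out 1 liver moved the adjusted p from 0.0108 to 0.0823 and ended the call without WT 1, 2, 3 or 5, or without NML-KO 1 or 5.

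Wdr12, the WD-repeat partner of Pes1 and Bop1, was 7.49, 7.27, 7.31, 7.22 and 7.41 in the Dbp-high livers and 7.09, 7.12, 7.02, 7.00 and 7.16 in the Dbp-low livers, in the same order. It was the single member whose sets did not overlap, where 5.04% of all genes were higher without overlap. The rise was 1.20-fold, a log2 difference of 0.27 (SE 0.064, adjusted p = 0.0230 by limma with Benjamini-Hochberg adjustment), and it was 0.30 within WT and 0.23 within NML-KO livers. A second probe set of Wdr12, with lower signal, gave 0.17 (SE 0.092, adjusted p = 0.281), and the mean of both probe sets did not pass at an adjusted p of 0.0651. The range of adjusted p on leaving out 1 liver was 0.0189 to 0.0668, and the call was lost without WT 1, WT 5 or NML-KO 4. The other genes of its complex gave 0.10 for Pes1 and -0.056 for Bop1, neither called. The Wdr12 gene lies on chromosome 1. On the platform, the number of the probe set used lies apart from those of the other chromosome 1 members. The number of the second probe set lies among them. Whether the probe set used reads another locus was not tested, so the call and the separation hold for that probe set alone.

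Nop10, the smallest core protein of the H/ACA particle, was 9.89, 9.96, 9.72, 9.84 and 9.83 in the Dbp-high livers and 9.63, 9.67, 9.60, 9.54 and 9.74 in the Dbp-low livers. NML-KO 5 of the low set was above NML-KO 1 of the high set, and the other livers were separate. The rise was 1.17-fold, a log2 difference of 0.22 (SE 0.059, adjusted p = 0.0334 by limma with Benjamini-Hochberg adjustment), with 0.30 within WT and 0.15 within NML-KO livers. It passed in 2 of 10 fits with 1 liver left out, namely when NML-KO 1 or NML-KO 5 was omitted and not when any other liver was, and the adjusted p over the 10 ranged from 0.0179 to 0.0949. The call was also lost with dim genes left out, at an adjusted p of 0.0529, and with array weights, at 0.139. Its particle partners were not called, with 0.16 for Dkc1, -0.091 for Gar1 and 0.055 for Nhp2.

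The promoters of Nob1 and Nop10 are shown because these called members have a single start each in the RefSeq table, whose build is GRCm38.p6. The bases are the 250 before the start, 5′ to 3′ on the gene's strand.
Nob1, chr8:107425039-107425288, - strand: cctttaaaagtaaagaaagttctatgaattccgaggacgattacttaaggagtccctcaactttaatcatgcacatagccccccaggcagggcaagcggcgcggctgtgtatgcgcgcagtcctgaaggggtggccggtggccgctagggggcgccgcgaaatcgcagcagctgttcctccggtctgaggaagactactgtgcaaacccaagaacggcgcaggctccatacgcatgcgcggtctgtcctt
Nop10, chr2:112261676-112261925, + strand: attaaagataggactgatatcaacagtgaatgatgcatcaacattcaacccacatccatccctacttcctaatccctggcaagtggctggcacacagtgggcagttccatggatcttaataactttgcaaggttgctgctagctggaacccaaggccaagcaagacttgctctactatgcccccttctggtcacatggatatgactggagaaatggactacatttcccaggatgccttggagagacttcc
Across the 300 bases from 250 before to 50 after the start, 40 of the 44 members had an entry, and Npm1, Bop1, Rrs1 and Rrp12 had none. Neither promoter above holds the E-box CACGTG, the letters bound by MYC and by clock factors, or the D-box TTATGNAA, the letters bound by Dbp and its relatives, on either strand. Of the 40, 7 had the E-box, which is 17.5%, against 8.09% of 27025 genes with an entry. These 27025 are all genes with an entry, measured on the arrays or not, and were not matched to the members for base content. None of the 40 had the D-box, against 3.99%, and 13, or 32.5%, had the ETS motif CCGGAAG against 9.93%. A match is a description of letters and shows no binding.

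The E-box sites of the 7 genes are printed, 6 in genes of the small subunit and 1, that of Pes1, in the large subunit. Small-subunit factors are 19 of the 44 members and large-subunit factors 15. Whether the sites favour a subunit was not tested. Capitals mark the E-box, the build is GRCm38.p6, and the flanks are 10 bases or what the window holds.
Imp4, chr1:34439698-34439723, + strand: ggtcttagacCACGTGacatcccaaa
Ltv1, chr10:13193094-13193119, - strand: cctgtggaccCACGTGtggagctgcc
Pes1, chr11:3963967-3963992, + strand: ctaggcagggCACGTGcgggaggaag
Tsr1, chr11:74898094-74898119, + strand: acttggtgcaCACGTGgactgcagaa
Utp18, chr11:93885771-93885796, - strand: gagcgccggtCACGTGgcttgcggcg
Utp20, chr10:88826765-88826787, - strand: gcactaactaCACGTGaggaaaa
Wdr43, chr17:71616222-71616247, + strand: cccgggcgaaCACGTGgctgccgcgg
None of these 7 genes was called in either comparison, where 0% of all genes were called between genotypes and 12.9% between the Dbp sets.

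The members next in order of p did not pass after adjustment. Utp15, a processome WD-repeat protein, had a Dbp-high minus Dbp-low difference of 0.21 (SE 0.071, adjusted p = 0.0830 by limma with Benjamini-Hochberg adjustment). The same difference was 0.28 for Rrp12 (SE 0.10, adjusted p = 0.102) and 0.14 for Ebna1bp2, a large-subunit factor (SE 0.059, adjusted p = 0.162). Nop16, a large-subunit factor and known MYC target, was 8.78, 9.02, 8.73, 8.88 and 8.94 in the Dbp-high livers and 9.03, 8.99, 8.94, 9.16 and 9.35 in the Dbp-low livers. The difference of -0.25 (SE 0.085, adjusted p = 0.0886) was -0.41 within NML-KO and -0.090 within WT livers, and NML-KO 4 and 5 were the highest livers. Without WT 2 the adjusted p of Nop16 was 0.0227. Mrto4 was -0.20 (SE 0.085, adjusted p = 0.161), and its second probe set gave -0.11 (SE 0.089, adjusted p = 0.488 by limma with Benjamini-Hochberg adjustment). Within 1.5-fold lay the 95% intervals of 39 of the 44 genes, or 88.6%, against 85.4% of all genes. The other 5 were Gtpbp4, Nop56, Nop58, Nolc1 and Npm1, while all 19 small-subunit factors were within.

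Nolc1 had the lowest Dbp difference of the members, at -0.41 (SE 0.19, unadjusted p = 0.0586 and adjusted p = 0.205 by limma with Benjamini-Hochberg adjustment). It was 7.47, 6.96, 7.79, 7.02 and 7.00 in the Dbp-high livers and 7.73, 7.89, 7.27, 7.46 and 7.90 in the Dbp-low livers. WT 1 and NML-KO 1 of the high set lay within the range of the low set, and the other 3 high livers lay below it. Gtpbp4, a nucleolar GTPase of the large subunit, differed by -0.32 (SE 0.18, adjusted p = 0.298), and Nop56 by 0.29 (SE 0.15, adjusted p = 0.244). 

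Of 46 marker genes of liver cell types, 3 were called between the Dbp sets, against 12.9% of all genes, and 0 between genotypes by limma. They were the hepatocyte gene Alb, higher by 0.21, the cholangiocyte gene Sox9, at -1.13, and the Kupffer cell gene Vsig4, at -1.24. The mean log2 intensity of the 4 cholangiocyte markers was 5.95 to 6.11 in Dbp-high and 6.15 to 6.41 in Dbp-low livers, and of the 4 Sox9 was the one with a difference below 0. The other 3, Krt19, Krt7 and Epcam, gave differences of 0.078, 0.062 and 0.074, and the median of the list was 0.068. The 6 Kupffer cell markers averaged 7.69 to 8.56 against 8.20 to 8.89, with 5 of 6 differences below 0. The 4 fat cell markers averaged 7.17 in WT 2 and 5.38 to 5.72 in every other liver, and none was called. Without WT 2 the adjusted p by limma was 0.0664 for Nob1, 0.0861 for Nop10 and 0.0239 for Wdr12. The part of these markers in the members' differences was not tested.

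Levels of the members also varied from liver to liver within each genotype and Dbp set. The median SD over the 10 livers was 0.17 on the log2 scale for the 44 and 0.15 for all genes. The span between the highest and lowest liver was 2.24-fold for Npm1, 2.22-fold for Nop58, 2.12-fold for Gtpbp4 and 2.09-fold for Nop56. It was 1.24-fold for Nip7 and 1.25-fold for Ebna1bp2. Npm1, a nucleolar chaperone, was 8.17, 7.52, 7.71, 8.06 and 7.85 in WT 1 to 5 and 8.20, 7.03, 7.72, 8.10 and 7.96 in NML-KO 1 to 5, so both genotypes held high and low livers. Nop58, a core box C/D protein, was 6.14, 6.35, 6.40, 6.83 and 6.23 in WT and 6.97, 5.82, 6.10, 6.53 and 6.58 in NML-KO livers. For both genes NML-KO 1 was the highest liver and NML-KO 2 the lowest, although both were NML-KO and Dbp-high.

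**Figure D4:**
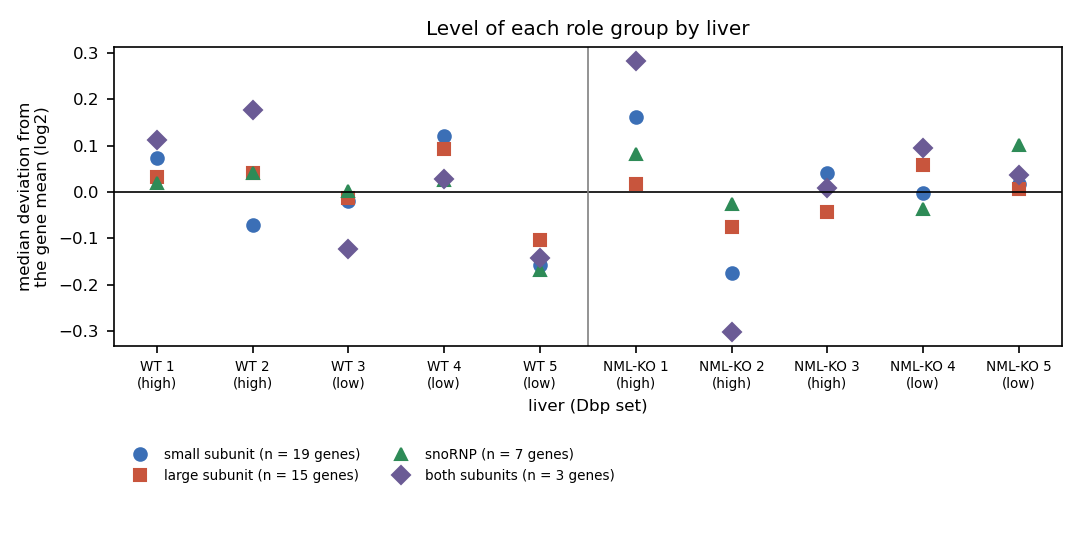
Median deviation of the small-subunit, large-subunit, snoRNP and both-subunit genes from their gene means in each of the 10 livers, on the log2 scale. Small-subunit factors run from -0.17 in NML-KO 2 to 0.16 in NML-KO 1, and large-subunit factors from -0.10 in WT 5 to 0.093 in WT 4.

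Single livers stood out over the list as a whole. NML-KO 1 was the highest liver for 12 of the 44 genes, against 9.39% of all genes, and NML-KO 2 the lowest for 15, against 15.2%. WT 5 was the lowest for 9 and the highest for 0, against 8.01% and 5.27% of all genes, and WT 4 the highest for 8 and the lowest for 0, against 8.42% and 9.73%. The median deviation of the 44 from their gene means was 0.060, 0.033, -0.024, 0.10 and -0.14 in WT 1 to 5. In NML-KO 1 to 5 it was 0.11, -0.15, 0.0056, -0.0055 and 0.022. The array of NML-KO 2 had an upper-quartile intensity of 190 against 206 to 221 in the others, and after quantile normalization it was the lowest for 10 of the 44 and NML-KO 1 the highest for 17. WT 4 was then the highest for 4 and the lowest for 1, and WT 5 still the lowest for 9. The part of array brightness in these deviations was otherwise not tested. The SD within NML-KO livers was larger than within WT livers for 19 of the 44, or 43.2%, against 55.2% of all genes.

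Other genes of the pathway, 87 of which were measured, were like the members in having no call between genotypes. The list was of further small-subunit, large-subunit and exosome genes, and 0 were called by limma with Benjamini-Hochberg adjustment, as 0% of all genes were. At an unadjusted p below 0.05, 0 were higher and 3 lower. That is 3.45%, against 1.66% of all genes for lower and 2.70% for either direction. Without overlap were 2 of the 87, or 2.30% against 0.406%, namely Aatf and Exosc5. The members had 0 of 44 at either limit, and 0 to 2 at that unadjusted p with 1 liver left out. These counts are small, and whether the lists differ was not tested. The median difference of the 87 was -0.0065. Aatf, a small-subunit factor, was 7.34, 6.98, 7.00, 7.02 and 7.21 in WT 1 to 5 and 6.95, 6.74, 6.68, 6.94 and 6.85 in NML-KO 1 to 5, with no overlap. Its difference was -0.28 (SE 0.087, unadjusted p = 0.0091, adjusted p = 0.999 by limma). Exosc5, an exosome subunit named after its values were seen, gave -0.16 (SE 0.071, unadjusted p = 0.0479 by limma). Nop53 gave -0.16 (SE 0.071, unadjusted p = 0.0476), Dcaf13 0.33 (SE 0.15, unadjusted p = 0.0509) and Brix1 0.23 (SE 0.10, unadjusted p = 0.0514), all by limma.

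Between the Dbp sets, 4 of the 87 were called higher and 6 lower, and the median was 0.015. These shares of 4.60% and 6.90% lay near the 4.92% and 7.99% of all genes. The 4 were the helicases Ddx49 and Ddx54, Rcl1 and Nop9. The 6 were the exosome subunits Exosc8 and Exosc9, the rRNA acetyltransferase Nat10, and the small-subunit factors Noc4l, Nol11 and Wdr46. Exosc8 was 6.55, 6.63, 6.73, 6.81 and 6.78 in the Dbp-high livers and 7.37, 7.31, 7.35, 7.17 and 7.38 in the Dbp-low livers. No liver overlapped, and the fall was 1.55-fold (log2 difference -0.63, SE 0.067, adjusted p = 0.000387 by limma with Benjamini-Hochberg adjustment). Ddx49 rose 1.53-fold (log2 difference 0.62, SE 0.094, adjusted p = 0.00258), also without overlap, at 7.52 to 8.01 against 7.10 to 7.40. Rcl1, known for cutting the precursor on the small-subunit path, rose 1.33-fold (log2 difference 0.42, SE 0.081, adjusted p = 0.00887) and Noc4l fell 1.18-fold (log2 difference -0.24, SE 0.048, adjusted p = 0.00926). By list, 7 of 35 other small-subunit genes were called, or 20%, 1 of 38 other large-subunit genes, or 2.63%, and 2 of 14 exosome genes, or 14.3%, against 12.9% of all genes.

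Myc itself ran from 7.17, 7.27, 6.70, 7.24 and 7.06 in WT 1 to 5 to 6.15, 5.99, 7.65, 7.77 and 6.93 in NML-KO 1 to 5. The NML-KO livers held both the lowest values, in NML-KO 1 and 2, and the highest, in NML-KO 3 and 4. The genotype difference was -0.19 (SE 0.34, unadjusted p = 0.589 by limma), and it was -0.62 within Dbp-high and 0.35 within Dbp-low livers. The Dbp difference was -0.27 (SE 0.35, adjusted p = 0.669 by limma with Benjamini-Hochberg adjustment). Of 10 measured genes of the MYC family, 0 were called between genotypes by limma and 1, Mnt, an antagonist of MYC, between the Dbp sets, with a difference of -0.38 (SE 0.072, adjusted p = 0.00802). That is 10% of the family, against 12.9% of all genes called in either direction.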

How the data were processed

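RNA was extracted from each liver with Sepazol and biotin-labelled with an Affymetrix kit, per the labels' protocols. The authors deposited intensity values on a linear scale for 28815 probe sets on 10 arrays, with build mm8 in the submitters' processing notes. How they were background-corrected and normalized is not stated there. Of the probe sets, 21780 had 1 gene symbol, and 19935 genes remained after choosing the probe set with the highest mean. No filter on dim genes was used.

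The deposited intensities were taken to log2 and fitted with limma 3.58.1 in R 4.3.3, taking an adjusted p (Benjamini-Hochberg, across the whole table) below 0.05 as called. Models held genotype, or genotype and the Dbp set, or their interaction. Members, gene lists, the Dbp division and the rule for named genes were chosen with earlier results of these data known. Named were, in each comparison, up to 8 members by smallest p and all called ones, 2 other pathway genes per direction, Dbp, Rrp8 and Myc. Further genes are given by value alone, and other called pathway genes, Nolc1, Gtpbp4, Npm1, Nop58 and Mnt were named after their values were seen. The fit was tested on simulated data. Alternatives were other normalizations, priors, weights, filters and probe set rules, an offset of 16, the replicate block, within-set fits and each liver left out. The interval count and the other probe sets were added after seeing the data.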

Additional observations from a re-analysis of the deposited data

Results flagged for a closer look

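Among 56 groups of 5 livers, 2 held a liver far from the rest by Dixon's test, a test that chance passes in about 1 in 20 groups. Dcaf13, a small-subunit factor that is no member, was 7.67 on the log2 scale in WT 2, against 7.21 to 7.29 in the other WT livers. The median deviation of the 7 snoRNP proteins was -0.17 in WT 5, against 0.0022 to 0.042 in the other WT livers.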

How the results depend on the processing

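Several settings changed the calls between the Dbp sets. The number of members higher was 5 after quantile normalization, with Utp15 and Imp3 added, 0 with a trended and robust prior, 0 within WT and 0 within NML-KO livers, and 0 to 2 as each liver was left out. The number lower was 1 with array weights, Nop16, and 0 to 2 with each liver left out, the 2 being Wdr75 and Gtpbp4 without NML-KO 1. Genes called over the whole table were 1223 within WT, 256 within NML-KO livers and 1625 to 2557 with a liver left out. The median of large-subunit factors was 0.054 with array weights and -0.054 to 0.027 with a liver left out. Between genotypes, members with an unadjusted p below 0.05 numbered 1 within the Dbp-low livers, Nop16, and 0 to 2 with a liver left out. Genes called were 0 to 1, the 1 without NML-KO 4. Within the Dbp-high livers the large-subunit median was -0.066 and 28 members had an interval within 1.5-fold. The Myc difference ran from -0.41 to 0.037 with a liver left out, above 0 without NML-KO 2, and was 0.35 within Dbp-low livers, and between the Dbp sets it ran from -0.46 to 0.0072, above 0 without NML-KO 4, and was 0.22 within WT livers. The cause of these changes was not tested. With the replicate block, 0 members had an unadjusted p below 0.05 and the median genotype difference was 0.0019. Same-numbered livers correlated by 0.44, 0.26, -0.42, 0.35 and 0.54 in their deviations. Number 3 is the only number whose livers fall in different Dbp sets, WT 3 being low and NML-KO 3 high. These correlations therefore cannot show whether the numbers are pairs, and the main fits did not take them as pairs. Of the other counts and medians, 146 with a liver left out and 153 under other settings stayed within the limits set for them.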
